A study of Danio rerio with 121 samples.

Results

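The genes described here are 48 genes of the cell cycle and of DNA replication, chosen by symbol from known cell cycle and replication factors, not by their values. Of these, 47 were among the 24801 gene symbols of the count table and incenp, the scaffold of the chromosomal passenger complex, was not in it. All 47 had at least 1 count in at least 8 libraries, as had 21638 genes in all. They were followed by 3′ RNA-Seq of whole, untreated zebrafish embryos of the wild type strain RW (RIKEN WT) over 9 stages. The stages were 6, 10, 15 and 20 somites (6 ss to 20 ss) and 24, 32, 48, 72 and 96 hours after fertilization (hpf). By their labels the libraries were of 3 kinds. There were 52 with a running number alone ("plain", 6, 15 and 20 ss and 24, 48, 72 and 96 hpf), 29 whose replicate number carries an S (6, 10 and 15 ss and 96 hpf; the labels do not say what S stands for). Another 40 had DrRyu names (20 ss and 24, 32, 48 and 72 hpf). Each stage of each kind had 8 libraries, except 4 plain and 5 S libraries at 15 ss. How many embryos went into a library is not settled, since the labels and the methods differ.

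Before a cell divides it copies its DNA once. The MCM helicase is loaded at replication origins by Cdc6 and Cdt1 in G1, is switched on with Cdc45 and the GINS complex, and is followed by the machinery of the fork. This includes the sliding clamp PCNA and the single-strand binding protein RPA. Cyclins A and B with Cdk1, the Polo and Aurora kinases, the spindle checkpoint and the condensins then take the cell through mitosis. In embryos these genes are known to be expressed in dividing cells, and they are therefore often read as a mark of proliferation in tissues such as the brain ventricular zone, the retinal margin and the blood precursors.

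Levels are given as CPM, the count of a gene relative to the total of its library, scaled by TMM, a factor that aligns each library with the others over most genes. Library totals ranged from 866854 to 21646478 counts with a median of 3129763. Each library correlated best with the mean of its own group (lowest r = 0.901, over 8680 genes). That mean includes the library itself, which favours its own group, so that this cannot settle whether each label is right. Differences are log2 fold changes from edgeR's quasi-likelihood test over 21638 genes, and a gene was called at an adjusted p (Benjamini-Hochberg over all of them) under 0.05. Nothing in the sources says which libraries came from separate clutches, so that p-values measure the spread between these libraries, which may in part be technical.

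Scaled by TMM, the summed level of the 47 genes changed little until 24 or 32 hpf and was smaller at each later stage. In plain libraries their summed level was 5464 to 5845 CPM (median 5600.4) at 6 ss, 5923 to 6380 CPM (median 6231) at 24 hpf and 2399 to 2634 CPM (median 2534) at 48 hpf. It was 1322 to 1479 CPM (median 1370.1) at 96 hpf. The 48 hpf libraries lay below those of 6 ss and 24 hpf, and those of 96 hpf below all of these, without overlap. The range of 15 ss, 5666 to 6451 CPM, overlapped with those of 6 ss and 24 hpf. TMM factors were 1.06 to 1.15 at 6 ss and 0.867 to 0.913 at 24 hpf, so that the order of these stages depends on the scaling. In DrRyu libraries the sum was 4219 to 5004 CPM at 32 hpf, 2572 to 3224 CPM at 48 hpf and 1420 to 1772 CPM at 72 hpf, again without overlap. These were whole embryos, and CPM is relative to the total of a library. A smaller share of dividing cells, less of these RNAs in each cell and more of other RNAs cannot be told apart.

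**Figure D1:**
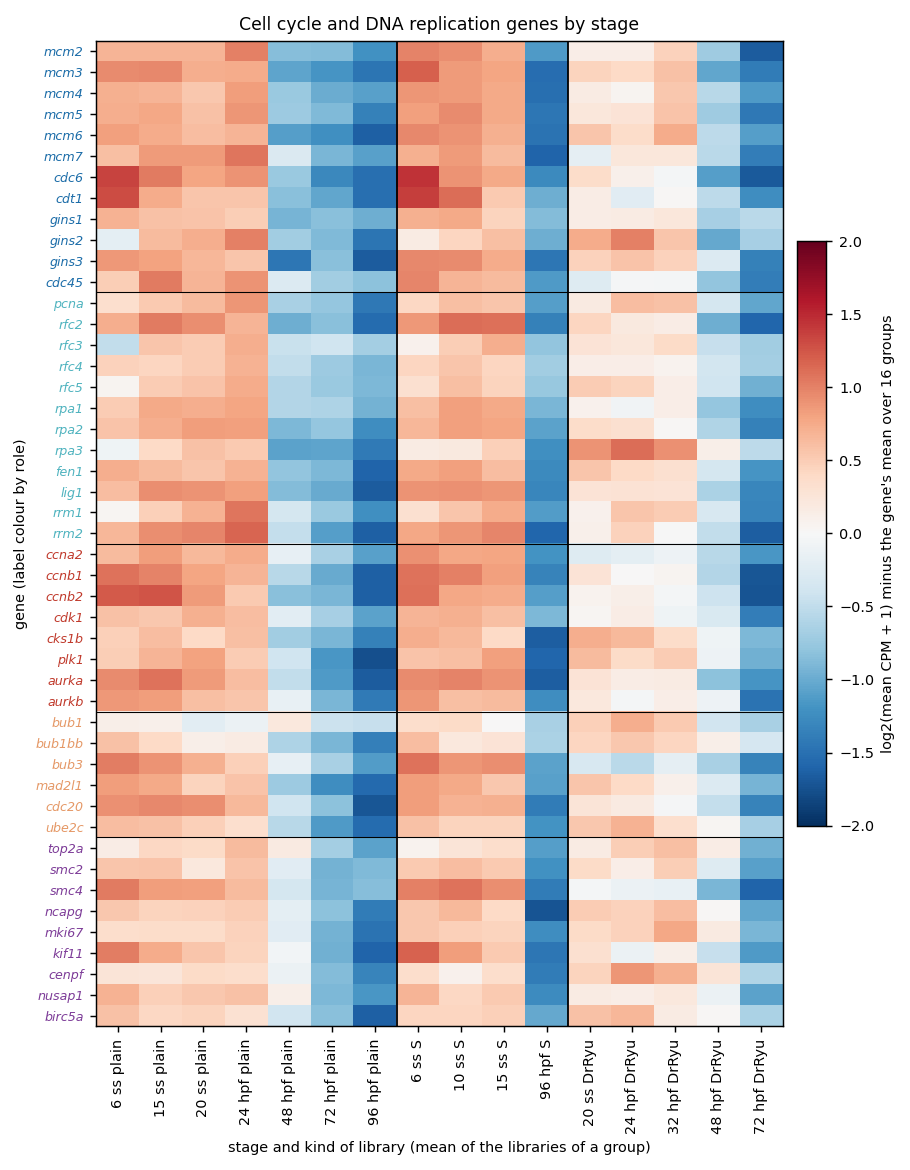
Level of each of the 47 genes (rows, label colour by role) in the 16 groups of libraries (columns, ordered by kind and then by stage), as log2(mean CPM + 1) minus the mean of the gene over the groups. The groups up to 32 hpf are above the mean for most genes, and the groups from 48 hpf are below it for most genes. An exception is bub1, whose highest mean in plain libraries was at 48 hpf.

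Between 6 ss and 96 hpf in plain libraries 45 of the 47 genes fell and none rose, while 22.6% of all genes tested were called lower and 32.0% higher. The median log2 fold change of the 47 was -1.96, beside 0.25 over all genes tested. In 44 of the 47 the 2 groups of libraries did not overlap, as in 12.7% of all genes. The genes not called were rfc3 and bub1. In S libraries, which are separate samples of the same stages, all 47 were called lower (22.6% of all genes, with 30.5% higher), with a median of -2.18. In 44 the groups did not overlap (12.5%). From 20 ss to 72 hpf 46 genes fell in plain libraries (18.5% of all genes, median -1.54) and none rose (23.1%). The groups of 46 did not overlap (11.2%). In DrRyu libraries 47 fell (21.2%, median -1.49) and none rose (27.0%), and 34 did not overlap (5.07%). A median change of 3.88-fold in plain and 4.53-fold in S libraries over the longer span compares with 2.90-fold and 2.81-fold over the shorter one. With library totals in place of TMM the median of all genes moved by -0.17 in the plain and by -0.21 in the S libraries over the longer span. The medians of the 47 genes were then -2.13 and -2.42. The deposited sample table gives a number used, whose meaning it does not describe. It was 50 at 6 ss and 5 at 96 hpf in plain libraries, and 25 and 1 in S libraries, and cannot be told apart from stage.

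Among the 12 genes of origin licensing and of the helicase (mcm2 to mcm7, cdc6, cdt1, gins1 to gins3 and cdc45) all 12 fell from 6 ss to 96 hpf in both plain and S libraries. mcm2, a subunit of the helicase, lay at 146 to 197 CPM (median 170.1) at 6 ss, 183 to 249 CPM (median 219) at 24 hpf and 46.3 to 67.6 CPM (median 63.2) at 48 hpf. At 72 and 96 hpf it lay at 47.4 to 73.1 CPM (median 57.7) and 32.8 to 54.8 CPM (median 48.1). The 24 and 48 hpf libraries did not overlap, whereas those of 48, 72 and 96 hpf did. The fall from 24 to 48 hpf was -1.86 ± 0.14 (SE) on the log2 scale (adjusted p = 3.56e-23), and the next step was -0.03 ± 0.14 (SE) (adjusted p = 0.986). In DrRyu libraries mcm2 lay at 111 to 221 CPM (median 141) at 32 hpf, 48.6 to 101 CPM (median 61.6) at 48 hpf and 15.8 to 50.4 CPM (median 29.5) at 72 hpf, and both steps passed the test (-1.19, adjusted p = 7.08e-12, and -0.94, adjusted p = 9.29e-08).

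cdt1, which loads the helicase, had the largest fall of this group, -3.04 ± 0.31 (SE) from 6 ss to 96 hpf in plain libraries (adjusted p = 2.24e-16). It lay at 33.1 to 47.8 CPM (median 37.2) at 6 ss, 18.4 to 29.9 CPM (median 22.3) at 24 hpf and 1.56 to 8.47 CPM (median 4.79) at 96 hpf, and the 6 ss libraries were above all those of 24 hpf. Its partner cdc6 was also highest at 6 ss, with 49.2 to 86.6 CPM (median 67.7) beside 41.0 to 62.4 CPM (median 50.9) at 24 hpf, where the groups overlapped. At 6 ss in S libraries cdt1 lay at 23.9 to 52.5 CPM (median 43.0) and at 15 ss at 17.8 to 30.2 CPM (median 20.5). gins2, a subunit of the complex that activates the helicase, had the smallest fall of the group (-1.33 ± 0.25 (SE), adjusted p = 2.21e-06), and its course differed. It lay at 11.3 to 27.1 CPM (median 19.0) at 6 ss, 33.5 to 59.3 CPM (median 42.2) at 24 hpf, 8.91 to 19.3 CPM (median 11.4) at 48 hpf and 1.04 to 16.1 CPM (median 7.40) at 96 hpf. All 24 hpf libraries were thus above all of 6 ss, and the span from 6 ss to 96 hpf covers a higher level in between.

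The 12 genes of the fork and of nucleotide supply comprise the clamp pcna, its loader (rfc2 to rfc5), the single-strand binding protein (rpa1 to rpa3), fen1 and lig1, which trim and join Okazaki fragments, and rrm1 and rrm2, the subunits of ribonucleotide reductase. From 6 ss to 96 hpf 11 of 12 fell in plain and 12 of 12 in S libraries. pcna lay at 585 to 717 CPM (median 647) at 6 ss, 858 to 1062 CPM (median 951) at 24 hpf and 301 to 344 CPM (median 330.2) at 48 hpf. It then lay at 278 to 327 CPM (median 302) at 72 hpf and 172 to 213 CPM (median 196) at 96 hpf. The libraries of 24 hpf were above those of 6 ss and of 48 hpf without overlap, those of 48 and 72 hpf overlapped, and those of 96 hpf were below all others. The log2 fold changes of these steps were -1.54 ± 0.09 (SE) from 24 to 48 hpf (adjusted p = 5.9e-33), -0.12 ± 0.09 (SE) from 48 to 72 hpf (adjusted p = 0.566) and -0.66 ± 0.09 (SE) from 72 to 96 hpf (adjusted p = 6.42e-09).

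rrm2, the small subunit of the reductase, lay at 706 to 821 CPM (median 793) at 24 hpf, 225 to 274 CPM (median 245) at 48 hpf, 138 to 175 CPM (median 165) at 72 hpf and 93.1 to 129.8 CPM (median 109) at 96 hpf in plain libraries. None of these groups overlapped with the next, and rrm2 fell at each of these steps (log2 fold changes -1.64, -0.63 and -0.53, largest adjusted p = 2.73e-06). fen1 had the largest fall of the group over the whole span, from 136 to 159.9 CPM (median 147) at 6 ss to 24.4 to 31.4 CPM (median 29.9) at 96 hpf (-2.37 ± 0.14 (SE), adjusted p = 1.74e-34).

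rfc3, a subunit of the clamp loader, had the smallest. It lay at 12.2 to 21.8 CPM (median 13.6) at 6 ss, 27.9 to 34.7 CPM (median 31.5) at 15 ss (4 libraries), 30.4 to 42.6 CPM (median 36.0) at 24 hpf and 7.72 to 20.3 CPM (median 11.1) at 96 hpf. The 6 ss and 96 hpf libraries overlapped and their difference did not pass the test (-0.21 ± 0.20 (SE), adjusted p = 0.39). It rose first (1.10 ± 0.22 (SE) from 6 to 15 ss, adjusted p = 0.000408) and fell later (-1.21 ± 0.19 (SE) from 24 to 48 hpf, adjusted p = 3.2e-08). With the size factors of DESeq2 the difference between 6 ss and 96 hpf changed sign (0.02 in either tool). In S libraries rfc3 lay at 16.2 to 30.5 CPM (median 22.1) at 6 ss and 7.52 to 19.3 CPM (median 11.9) at 96 hpf, with overlap. It was called lower there (-0.89 ± 0.20 (SE), adjusted p = 5.34e-05).

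**Figure D2:**
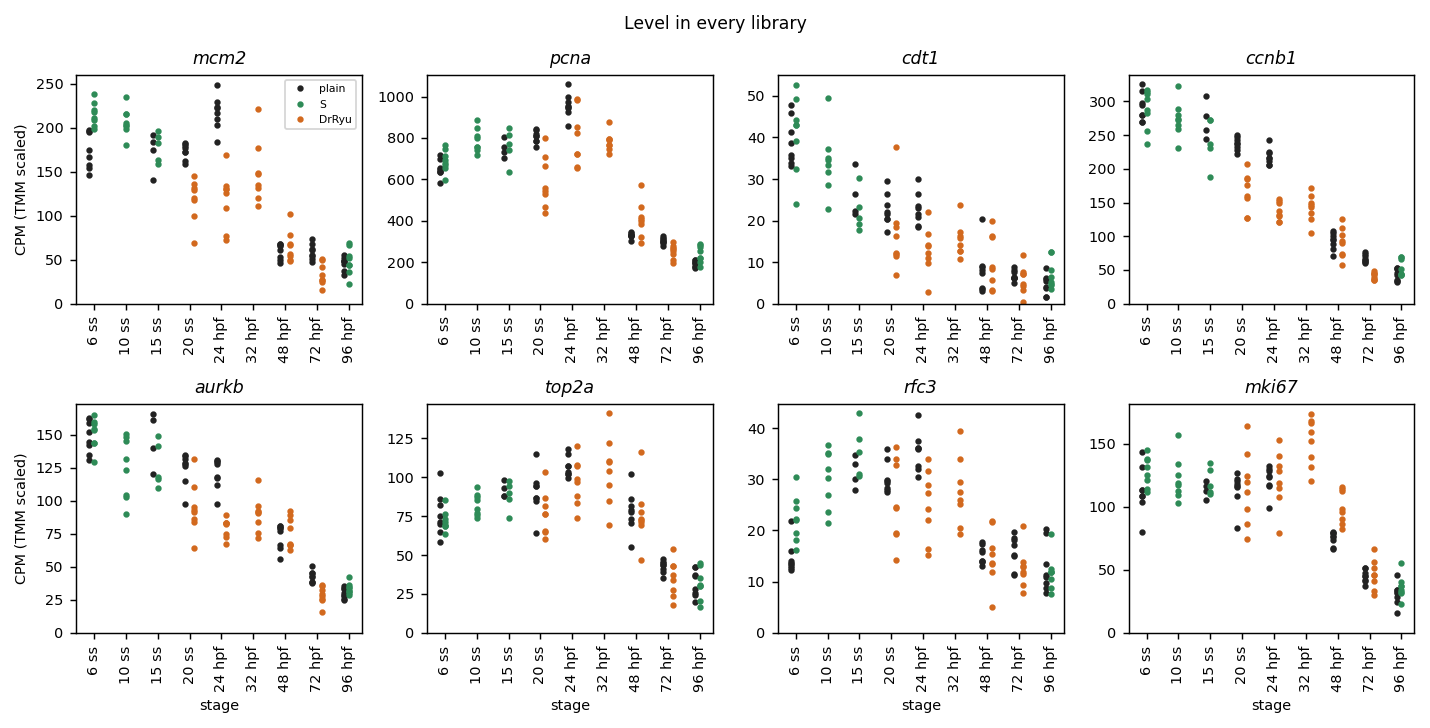
Level of 8 of the genes in every library (1 point per library, CPM on a linear axis from 0, stages in order but not to scale in time, colour by kind of library). Between 24 and 48 hpf in plain libraries pcna and mcm2 drop more, on the log2 scale, than top2a and mki67, which also drop. At 48 hpf top2a and mki67 are at 55.5 to 102.4 and 66.5 to 79.7 CPM, and both are lower at 72 hpf.

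Among the 8 mitotic cyclins and kinases (ccna2, ccnb1, ccnb2, cdk1, its adaptor cks1b, plk1, aurka and aurkb) all 8 fell from 6 ss to 96 hpf in plain and in S libraries, with medians of -2.30 and -2.25. ccnb1, the cyclin that drives entry into mitosis, lay at 269.8 to 325 CPM (median 287) at 6 ss, 205 to 242 CPM (median 216) at 24 hpf, 70.8 to 108 CPM (median 94.9) at 48 hpf and 31.8 to 53.5 CPM (median 43.5) at 96 hpf. Each of these groups was above the next without overlap. Its log2 fold change over the span was -2.75 ± 0.12 (SE) (adjusted p = 3.89e-47), and in DrRyu libraries from 20 ss to 72 hpf it was -2.01 ± 0.11 (SE) (adjusted p = 1.85e-35). ccnb2, its relative, had the largest fall of the 47 genes in plain libraries (-3.05 ± 0.26 (SE), adjusted p = 1.21e-20), from 32.7 to 53.0 CPM (median 45.3) to 1.71 to 10.4 CPM (median 4.01).

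cdk1, the kinase that both cyclins activate, had the smallest fall of the group (-1.67 ± 0.14 (SE), adjusted p = 9.9e-21). It lay at 110.0 to 147 CPM (median 115) at 6 ss, 102 to 135 CPM (median 126) at 24 hpf, 58.7 to 87.1 CPM (median 65.1) at 48 hpf and 29.8 to 49.1 CPM (median 38.5) at 96 hpf. In DrRyu libraries it lay at 60.2 to 90.03 CPM (median 74.1) at 32 hpf, 36.8 to 84.0 CPM (median 65.8) at 48 hpf and 23.1 to 49.9 CPM (median 26.6) at 72 hpf. The 32 and 48 hpf libraries overlapped and did not pass the test (-0.21, adjusted p = 0.296), whereas from 48 to 72 hpf it fell (-1.11, adjusted p = 1.2e-10). aurkb, the kinase of the chromosomal passenger complex, had the same order of steps there, with 71.7 to 116 CPM (median 90.8), 62.6 to 92.1 CPM (median 73.1) and 16.1 to 36.5 CPM (median 28.8) at the 3 stages. Only the 72 hpf libraries stood apart from those of 48 hpf without overlap (log2 fold changes -0.24, adjusted p = 0.109, and -1.42, adjusted p = 5.5e-21).

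The 6 genes of the spindle checkpoint and of anaphase control are bub1, bub1bb, bub3 and mad2l1, which hold back anaphase until the chromosomes are attached, and cdc20 and ube2c, which act with the anaphase-promoting complex. Of these 5 fell from 6 ss to 96 hpf in plain and 6 in S libraries. bub3 lay at 107 to 156 CPM (median 121.1) at 6 ss, 77.4 to 93.5 CPM (median 86.0) at 24 hpf, 47.8 to 62.9 CPM (median 52.6) at 48 hpf and 20.1 to 38.0 CPM (median 26.1) at 96 hpf, each group above the next without overlap. cdc20 had the largest fall of the group, from 82.3 to 115 CPM (median 104) to 12.1 to 21.5 CPM (median 14.2) (-2.71 ± 0.15 (SE), adjusted p = 8.79e-35).

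bub1 was close to the limit of detection throughout. It had 16 counts over the 8 plain libraries of 6 ss and 4 over those of 96 hpf, 25 and 1 in the S libraries of these stages, and 38 and 3 in the DrRyu libraries of 20 ss and 72 hpf. Its differences were not called in plain libraries (adjusted p = 0.205 from 6 ss to 96 hpf, adjusted p = 0.544 from 20 ss to 72 hpf), and the calls in S (adjusted p = 0.0169) and DrRyu libraries (adjusted p = 0.00634) rest on these few counts. With DESeq2 the S call was lost (adjusted p = 0.0513).

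Among the 9 genes of chromosome structure and of the spindle (top2a, the condensin subunits smc2, smc4 and ncapg, mki67, the spindle motor kif11, cenpf, nusap1 and birc5a) all 9 fell from 6 ss to 96 hpf in plain and in S libraries, with medians of -1.89 and -1.85. top2a, which untangles the copied DNA, had the smallest fall. It lay at 58.6 to 103 CPM (median 73.2) at 6 ss, 99.5 to 118 CPM (median 105) at 24 hpf, 55.5 to 102 CPM (median 78.4) at 48 hpf and 35.4 to 47.7 CPM (median 43.7) at 72 hpf. The 48 hpf libraries overlapped with those of 6 ss and 24 hpf but not with those of 72 hpf, and the larger step was the later one (-0.88 ± 0.14 (SE), adjusted p = 4.13e-07, after -0.44 ± 0.14 (SE), adjusted p = 0.00902).

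mki67, a protein of the surface of mitotic chromosomes widely used as a proliferation marker, lay at 99.4 to 132 CPM (median 124) at 24 hpf, 66.5 to 79.7 CPM (median 76.5) at 48 hpf, 36.9 to 51.8 CPM (median 45.0) at 72 hpf and 15.9 to 45.7 CPM (median 32.1) at 96 hpf. Up to 72 hpf these groups did not overlap and the steps were alike in size (-0.70 and -0.73). In DrRyu libraries mki67 was at 120.2 to 174 CPM (median 156) at 32 hpf, 82.1 to 115 CPM (median 97.1) at 48 hpf and 29.9 to 66.2 CPM (median 45.8) at 72 hpf, without overlap between neighbouring stages. kif11 had the largest fall of the group over the whole span, from 84.4 to 135 CPM (median 110.2) at 6 ss to 8.69 to 22.4 CPM (median 17.7) at 96 hpf (-2.68 ± 0.19 (SE), adjusted p = 5.17e-27).

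At single steps before 24 hpf few of the genes passed the test. The whole change from 6 ss to 24 hpf was not tested. Over it the roles differed in plain libraries, scaled by TMM. The mean log2(CPM + 1) of the fork genes was 6.67 to 6.86 at 6 ss and 7.14 to 7.32 at 24 hpf. Medians at these stages were 5.75 and 5.42 for checkpoint and 6.73 and 6.54 for mitotic genes. They were 6.12 and 6.16 for licensing and 6.40 and 6.34 for chromosome genes. Libraries of both stages overlapped for all roles but the fork genes. In plain libraries 1 of 47 rose from 6 to 15 ss (rfc3) and none fell, beside 2.14% and 0.481% of all genes. From 15 to 20 ss 0 rose and 0 fell by edgeR or DESeq2 (1 gene at an unadjusted p under 0.05), beside 2.41% and 1.73%. From 20 ss to 24 hpf 2 rose (pcna 0.25 and rrm1 0.38) and none fell, beside 10.5% and 2.92%. In S libraries edgeR and DESeq2 called 0 of 47 from 6 to 10 ss (7 at an unadjusted p under 0.05, with 1.10% of all genes called higher and 0.564% lower) and 0 from 10 to 15 ss (1 at an unadjusted p under 0.05, with 1.42% and 0.356%). In DrRyu libraries pcna, rrm1, rrm2 and cenpf rose and ccnb1 and kif11 fell from 20 ss to 24 hpf, with log2 fold changes of -0.44 to 0.47. From 24 to 32 hpf mcm4 and mcm6 rose and rrm2, ube2c and birc5a fell, between -0.50 and 0.49. All genes rose in 14.9% and 8.02% and fell in 12.2% and 4.04% at these steps. These small counts depend on the scaling and on which libraries are fitted together (up to 12 of 47 with library totals from 20 ss to 24 hpf in DrRyu libraries). With library totals 2561 of 21638 genes were called higher and 3848 lower at that step, so that the 12 are no result about the 47. The median of the 47 genes was between -0.06 and 0.06 at each of these steps. With library totals it was -0.24 in plain and -0.23 in DrRyu libraries from 20 ss to 24 hpf, a step at which this choice moved the median of all genes by -0.26 and -0.12.

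For the 47 genes as a set the fall came after 24 or 32 hpf. From 24 to 48 hpf 46 of 47 genes fell in plain libraries (14.3% of all genes; median -1.32), and 40 had groups of libraries that did not overlap (9.74% of all genes). From 48 to 72 hpf 21 fell (4.42%; median -0.44) and 8 did not overlap (3.12%). From 72 to 96 hpf 18 fell (2.58%; median -0.47) and 7 did not overlap (1.89%). With plain libraries fitted alone 33 fell at the last step, a count given without the share over all genes in that fit. In DrRyu libraries 36 genes fell from 32 to 48 hpf (11.8%; median -0.65), 9 without overlap (1.41%). There 36 also fell from 48 to 72 hpf (8.77%; median -0.74), 9 without overlap (0.827%). None of the 47 rose at these 5 steps, where 11.9%, 3.78%, 2.38%, 7.48% and 9.33% of all genes did. With library totals in place of TMM 11 rather than 21 genes fell from 48 to 72 hpf in plain libraries, where this choice moved the median of all genes by 0.20. Over all 21638 genes 551 rather than 957 were then called lower.

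The sizes of the falls differed between the roles and between the steps. In plain libraries the median log2 fold change from 24 to 48 hpf was -1.66 for the licensing and helicase genes, -1.52 for the fork genes, -1.01 for the mitotic cyclins and kinases, -0.86 for the checkpoint genes and -0.70 for the chromosome and spindle genes. From 48 to 72 hpf the licensing and fork genes changed least, with medians of -0.18 and -0.12 beside -0.49, -0.51 and -0.75 for the mitotic, checkpoint and chromosome genes. At this step 1 of 12 licensing, 2 of 12 fork, 6 of 8 mitotic, 3 of 6 checkpoint and 9 of 9 chromosome genes were called lower. With library totals the licensing and fork medians of this step were 0.03 and 0.08, so that their sign is not settled. The counts called lower were then 0 of 12 licensing, 1 of 12 fork, 2 of 8 mitotic, 1 of 6 checkpoint and 7 of 9 chromosome genes. The chromosome medians from 24 to 48 and from 48 to 72 hpf were -0.81 and -0.55 with library totals. With the size factors of DESeq2 they were -0.48 and -0.69, so that which step was larger depends on the scaling.

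**Figure D3:**
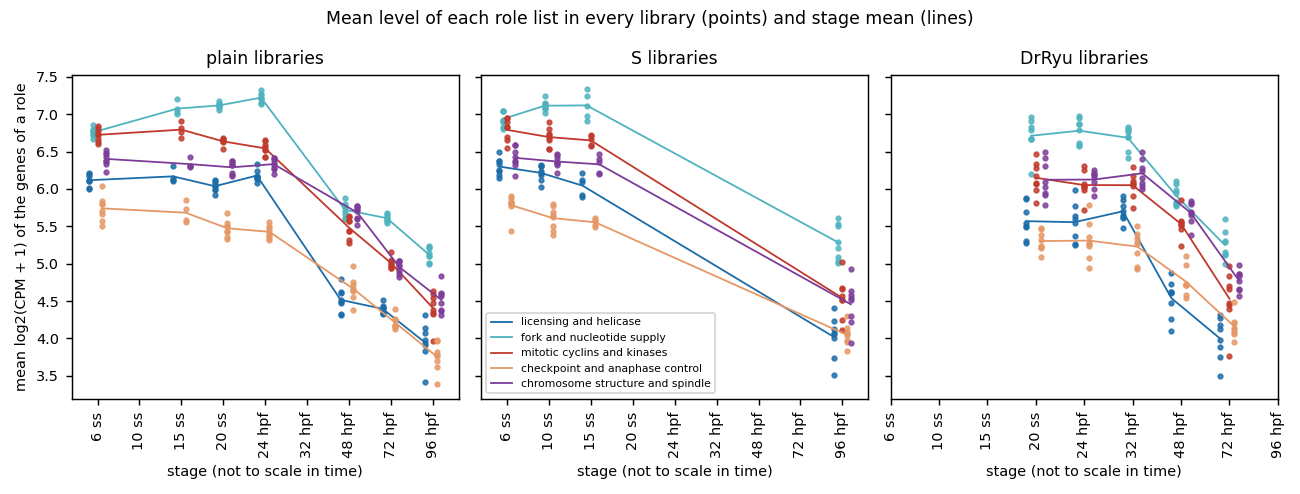
Mean log2(CPM + 1) of the genes of each role (colour) in every library (points) and their mean at each stage (lines), in a panel for each kind of library, with stages in order but not to scale in time (the S libraries cover 6 to 15 ss and 96 hpf). In plain libraries, scaled by TMM, the licensing and fork genes drop between 24 and 48 hpf and then level off until 72 hpf. The chromosome and spindle genes drop about equally at both steps with TMM, which depends on the scaling.

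The difference between both steps was tested gene by gene, a test added after the data had been seen. In plain libraries the change from 48 to 72 hpf was less negative than that from 24 to 48 hpf in 24 of 47 genes (6.37% of all genes) and more negative in 0 (6.08% of all genes; 1 of the 47 at an unadjusted p under 0.05, and 1 with DESeq2). These were 8 of 12 licensing, 12 of 12 fork, 3 of 8 mitotic, 1 of 6 checkpoint and 0 of 9 chromosome genes. With the size factors of DESeq2 23 genes were less and 1 was more negative, and with library totals 30 and 0. Of all 21638 genes 2300 were less and 875 more negative with library totals, beside 1379 and 1316 with TMM. The larger count with library totals thus goes with a larger count over all genes. Examples are mcm2 (1.83 ± 0.25 (SE), adjusted p = 2.59e-09) and pcna (1.42 ± 0.16 (SE), adjusted p = 2.14e-13), beside mki67 (-0.03 ± 0.22 (SE), adjusted p = 0.994). Both steps share the 48 hpf libraries, whose level enters them with opposite sign. The licensing counts were 8 to 11 and the fork count 12 with library totals, with the size factors of DESeq2 and with DESeq2 itself.

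DrRyu libraries, which are other samples, also had the largest falls of the first step among licensing and fork genes. From 32 to 48 hpf the medians were -1.11 for licensing, -0.82 for fork, -0.46 for mitotic, -0.42 for checkpoint and -0.59 for chromosome genes, and from 48 to 72 hpf they were -0.69, -0.66, -0.98, -0.72 and -0.88. The later step was less negative in 3 genes, mcm3 (1.31, adjusted p = 8.09e-05), mcm6 (0.72, adjusted p = 0.0225) and gins2 (2.05, adjusted p = 0.000157) (5.21% of all genes). It was more negative in 3, rrm2 (-0.67, adjusted p = 0.000818), cdk1 (-0.90, adjusted p = 0.00551) and aurkb (-1.17, adjusted p = 1.2e-06; 5.29% of all genes). Both counts are close to the shares over all genes in this fit (edgeR with TMM), so that they are no result about the 47. With the size factors of DESeq2 7 genes, and with DESeq2 itself 8, were more negative at the later step, and 3 were less negative with either. Of all 21638 genes DESeq2 called 876 more and 802 less negative. The count of more negative genes, and how it compares with all genes, thus depends on the setting. The first step began at 32 hpf here and at 24 hpf in plain libraries, so that its sizes, and the differences between the steps, cannot be set against each other. The step from 48 to 72 hpf carries the same labels in both kinds, but the libraries differed in other genes. The summed level of 12 muscle genes at 48 and 72 hpf had medians of 101860 and 81348 CPM in plain libraries. In DrRyu libraries these were 35479 and 41158 CPM. The median log2 fold changes of the step were -0.18 in plain and -0.69 in DrRyu libraries for licensing genes. They were -0.12 and -0.66 for fork genes. The levelling off of these roles after 48 hpf in plain libraries thus did not appear in DrRyu libraries, and this difference between the kinds was not tested. Over the 47 genes the estimates of this step lay within 2 standard errors of each other for 27, with a median absolute difference of 0.37 on the log2 scale.

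The gap between the roles can also be read within each library, where scaling has little effect. It was taken between those with the largest and the smallest median fall from 24 to 48 hpf in plain libraries. For the plain libraries the gap thus restates that difference and is no separate support. The mean log2(CPM + 1) of the licensing genes minus that of the chromosome genes was -0.33 to 0.14 (median -0.20) in the plain libraries of 24 hpf, -1.29 to -0.95 (median -1.21) at 48 hpf and -0.71 to -0.34 (median -0.56) at 72 hpf. The 48 hpf libraries were thus below both neighbours without overlap. At 6 ss the difference was -0.50 to -0.12 and at 96 hpf it spread from -1.18 to -0.05. In DrRyu libraries it was -0.84 to -0.18 at 32 hpf, -1.58 to -0.77 at 48 hpf and -1.36 to -0.38 at 72 hpf, with the lowest median at 48 hpf (-1.08) but with overlap on both sides.

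**Figure D4:**
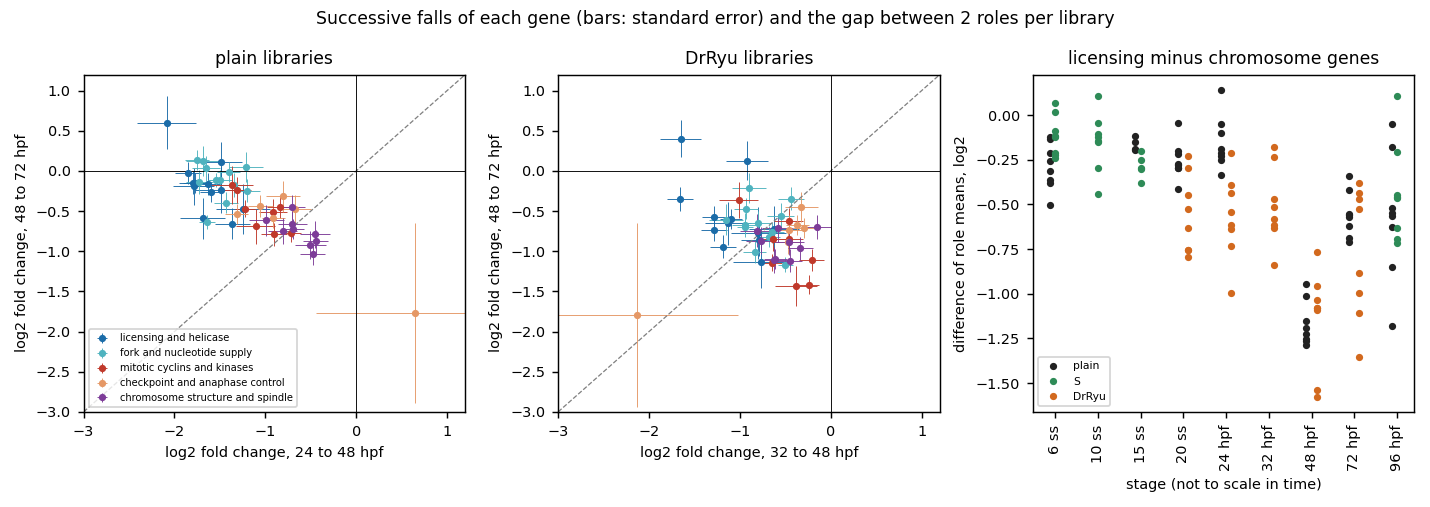
Left and middle, log2 fold change of each gene at 2 successive steps in plain (24 to 48 and 48 to 72 hpf) and DrRyu libraries (32 to 48 and 48 to 72 hpf), with standard errors, colour by role and a dashed line where both steps are equal. Right, mean of the licensing genes minus mean of the chromosome genes in every library (log2) by stage; the plain libraries of 48 hpf lie between -1.29 and -0.95, below those of 24 and 72 hpf.

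Transcripts of differentiated tissues rose from 6 ss to 48 hpf in plain libraries, and not all of them rose further. All 12 listed muscle genes, all 20 neuron genes and 6 of 8 erythroid genes were higher at 96 hpf than at 6 ss in plain libraries. Of all genes 32.0% were. The summed level of 12 muscle genes was 473 CPM at 6 ss, 14612 at 24 hpf, 101860 at 48 hpf and 92669 at 96 hpf (medians of plain libraries). At these stages that of 20 neuron genes was 171, 694, 1884 and 1848 CPM. That of 8 erythroid genes was 41.9, 5706, 17878 and 4267 CPM. At 72 hpf the muscle, neuron and erythroid sums were 81348, 2082 and 9717 CPM. In DrRyu libraries the muscle sum was 17910.4 CPM at 32 hpf and 35479 at 48 hpf. The share of the 20 most abundant genes in a library was 14.2% to 14.7% at 6 ss and 17.9% to 18.7% at 48 hpf in plain libraries. The part of these changes in composition in the fall of the 47 genes was not tested.

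The kinds of library differed in level at shared stages. At 20 ss 34 and at 24 hpf 38 of the 47 genes had a lower mean in DrRyu than in plain libraries (median log2 ratio -0.38 and -0.47), at 48 hpf 20 did (0.06) and at 72 hpf 34 did (-0.28). These are descriptions, since kind, year (2020 for the numbered, 2021 for the DrRyu libraries) and any difference in preparation cannot be told apart. The share of all genes with a lower mean was not counted, so that these numbers are no result about the 47. Libraries of one label also differed in other genes. At 20 ss the summed level of 12 muscle genes was 1326 to 1518 CPM in plain and 456 to 785 CPM in DrRyu libraries. In the test of the difference, the change from 20 ss to 72 hpf differed between DrRyu and plain libraries in 0 of 47 genes (4 at an unadjusted p under 0.05; 0 with DESeq2; 1.93% of all genes more positive and 2.42% more negative in DrRyu), and the estimates lay within 2 standard errors of each other for 44, beside 27 for the step from 48 to 72 hpf. Across the 47 genes the changes in both kinds correlated with r = 0.20, beside 0.69 over all genes, a description over genes that are not independent.

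**Figure D5:**
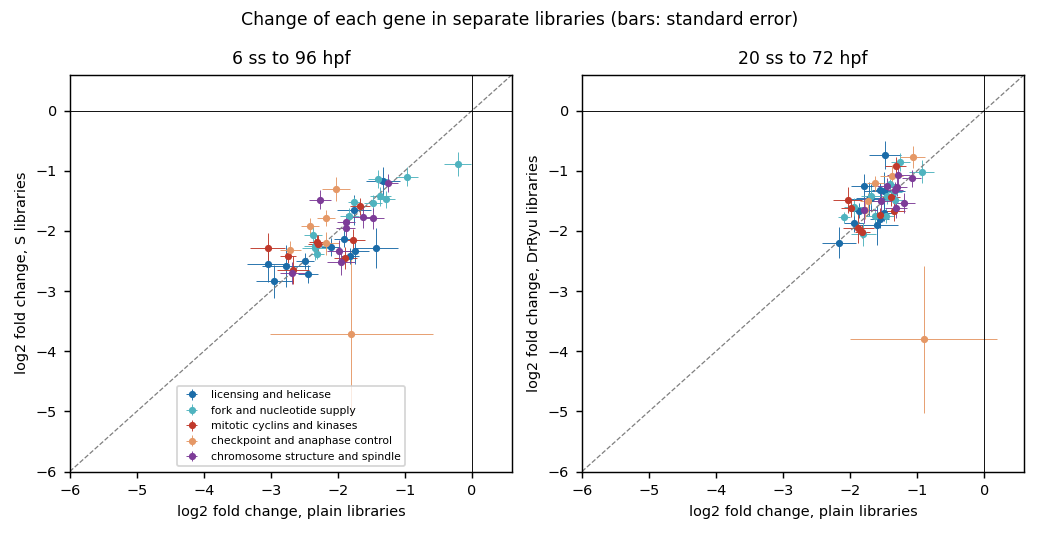
Log2 fold change of each of the 47 genes in separate libraries, with standard errors and colour by role, from 6 ss to 96 hpf in plain and S libraries (left) and from 20 ss to 72 hpf in plain and DrRyu libraries (right); the dashed line marks equal change. All 47 points lie below 0 on both axes in both panels, and bub1, with few counts, has the widest bars.

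Between S and plain libraries of one stage few of the 47 genes differed. Libraries of one label were not alike in all genes. At 15 ss the summed level of 12 muscle genes was 543 to 601 CPM in plain and 764 to 960 CPM in S libraries. At 6 ss these sums overlapped (428 to 527 and 478 to 544 CPM). At 6 ss and at 15 ss 0 of 47 genes passed the test (4 and 0 at an unadjusted p under 0.05; 0 with DESeq2), while 0.393% and 0.642% of all genes were called higher and 0.143% and 0.203% lower in S. At 96 hpf 4 were higher in S libraries (0.527% of all genes) and 0 lower (0.744%; 3 at an unadjusted p under 0.05). These were bub1bb (6.69 to 19.1 CPM (median 9.46) in plain and 11.6 to 23.8 CPM (median 20.8) in S libraries, 0.76 ± 0.21 (SE), adjusted p = 0.0435), birc5a (0.63, adjusted p = 0.0265), mad2l1 (0.51, adjusted p = 0.0365) and pcna (0.32, adjusted p = 0.0495). The groups overlapped for each of the 4, while 0.273% of all genes were higher in S without overlap. The deposited sample table gives a number used of 5 for the plain and of 1 for the S libraries of 96 hpf, which cannot be told apart from kind. Only 1 gene was called with library totals and 2 without the library of the lowest total. The change from 6 ss to 96 hpf differed between S and plain libraries in 0 genes (10 at an unadjusted p under 0.05; 3 with DESeq2; 0.157% of all genes more positive and 0.638% more negative in S).

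How alike the replicates were differed between stages and kinds. The number used was 50 for the plain libraries of 24 hpf, 5 for those of 96 hpf and 1 for the S libraries of 96 hpf. The median totals of these groups were 8478094.5, 2058683 and 2757869.5 counts. The part of number and depth in the spread was not tested. The median coefficient of variation of the 47 genes was 9.07% at 24 hpf and 26.9% at 96 hpf in plain libraries, 31.4% at 96 hpf in S libraries and 21.1% to 30.4% in DrRyu libraries. The mean over the 47 genes varied less, with an SD of 0.02 on the log2 scale among the 8 plain libraries of 24 hpf (6.41 to 6.48) and of 0.15 among the 8 DrRyu libraries of that stage (5.86 to 6.30).

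The stage of the highest mean level differed among the genes. In plain libraries 17 of 47 were highest at 6 ss, 9 at 15 ss, 5 at 20 ss, 15 at 24 hpf and 1 (bub1, where replicate 3 alone stood out) at 48 hpf, and 45 were lowest at 96 hpf. Of the genes highest at 6 ss, cdc6, cdt1, ccnb1, aurkb, bub3, kif11 and birc5a are examples, and mcm2, mcm5, pcna, the ribonucleotide reductase subunits, top2a and mki67 were among those highest at 24 hpf. These maxima are a description with TMM, since few of the early steps passed the test. With library totals the median change of the 47 genes from 20 ss to 24 hpf was -0.24 rather than 0.06, so that the number of maxima at 24 hpf depends on the scaling.

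Related genes outside the 47 mostly fell too. From 6 ss to 96 hpf in plain libraries 22.6% of all genes fell and 32.0% rose. Of 36 other replication genes 27 fell and 2 rose over this span. Their summed level was 3599 to 4340 CPM at 6 ss and 3267 to 3848 CPM at 96 hpf, with overlap, unlike that of the 47. That of the other mitosis genes was 2572 to 2903 and 758 to 913 CPM at these stages. Of 59 other mitosis genes 54 fell and none rose, and of 17 G1 cyclins, CDKs and E2F factors 11 fell and none rose. ccne2, the cyclin of S phase entry, was among the latter (-2.90 ± 0.22 (SE), adjusted p = 2.05e-24), as was e2f7, a repressor of the E2F family (-3.41 ± 0.46 (SE), adjusted p = 9e-11). The largest falls of the other replication and mitosis lists were those of the DNA polymerase subunit gene pole2 (-2.92), the thymidine kinase gene tk1 (-3.40), the centromere gene cenpn (-3.29) and wee1, which inhibits Cdk1 (-2.82; largest adjusted p = 2.23e-05). The 2 that rose were gmnn, the inhibitor of Cdt1 (0.24 ± 0.08 (SE), adjusted p = 0.0045), and rfc1, the large subunit of the clamp loader (0.20 ± 0.09 (SE), adjusted p = 0.0395). Both rises were no larger than the median of all genes in this comparison, 0.25.

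Of 15 CDK inhibitors and pocket proteins, which hold back the cycle, 4 rose and 6 fell over the same span, beside 32.0% and 22.6% of all genes, so that the rises were no more frequent than among all genes. ccng2, a cyclin linked to cell cycle arrest, was among those that rose (1.43 ± 0.21 (SE), adjusted p = 1.45e-09), with its rise from 24 to 48 hpf (1.06, adjusted p = 2.86e-06), the step at which 46 of the 47 genes fell. The pocket protein gene rbl2 rose (1.70 ± 0.42 (SE), adjusted p = 0.000233). Both genes for the CDK inhibitor p57, cdkn1ca (-2.12 ± 0.14 (SE), adjusted p = 2.9e-30) and cdkn1cb (-2.24 ± 0.44 (SE), adjusted p = 5.65e-06), fell. cdkn1ca changed little from 24 to 48 hpf (-0.09, adjusted p = 0.662) and fell from 48 to 72 hpf (-1.69, adjusted p = 1.57e-23). It did the same in DrRyu libraries (-0.01 from 32 to 48 hpf, adjusted p = 0.996, and -1.40 from 48 to 72 hpf, adjusted p = 2.89e-18).

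The genes whose profile was most like that of the 47 were sought by correlation over the 16 groups. The mean log2(CPM + 1) of a gene in each group was set against the mean of the profiles of the 47, each first scaled to the same mean and spread. Outside the 47, pclaf, whose product binds PCNA, had the highest r (0.993). It was followed by the histone chaperone gene nasp (0.992), sox19a, a SoxB1 transcription factor of neural progenitors (0.985), esco2, which joins sister chromatids (0.985), and chaf1b, a subunit of chromatin assembly factor (0.983). In all 189 of 21591 other genes had r over 0.95, of which 32 were in the lists of other replication and mitosis genes. Of the 47 genes themselves, which make up the mean, 31 had r over 0.95, and bub1 (0.77), rpa3 (0.82), rfc3 (0.85) and cenpf (0.86) were least like it. rpa3, a subunit of the single-strand binding protein, lay at 73.1 to 94.5 CPM (median 87.7) in plain and 72.9 to 162 CPM (median 132) in DrRyu libraries at 24 hpf. At that stage 38 of the 47 genes had the lower mean in DrRyu libraries, a count without a share over all genes. All of these values describe 16 group means that share stages, and carry no test.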

How the data were processed

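RNA of whole embryos was read by 3′ RNA-Seq. The authors trimmed read 1 with fastp 0.21.0, aligned it with BWA 0.7.17-r1188 to GRCz11 cDNA and estimated counts per gene with Salmon, and they deposited these estimated (expected) counts per gene symbol without normalization. Salmon was set to use no strand information, so that reads of a gene and of an antisense or overlapping neighbour cannot be told apart, and reads of close paralogs may be split. The deposited sample table also holds a number used per library, empty for the 40 DrRyu libraries, and a year, neither of which is a measurement.

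The 2 values that were not whole were rounded. Genes counted in 8 or more libraries were tested, and differences were tested in R 4.3.3 with edgeR 4.0.16 (TMM, quasi-likelihood test, limma 3.58.1 underneath), with all libraries in 1 fit, 1 mean for each of the 16 groups, and Benjamini-Hochberg adjustment over all genes tested, called under 0.05. Plots were drawn with Python 3.11.15 and matplotlib 3.10.9. Log levels are log2(CPM + 1). Alternatives were DESeq2 1.42.0, library totals, the size factors of DESeq2, other filters, fits of each kind alone, additive terms, a replicate block, 1 library of low total left out, and a pseudocount of 0.1. On simulated data with 200 changed genes and the depths of the comparison of 96 hpf with 6 ss in plain libraries, over 21629 genes, 24.5% of genes changed by 1 on the log2 scale were called and 94.1% of those changed by 2, and the test made 4 false calls. The simulation gave every gene the same dispersion and held no other change between stages. These values therefore check the procedure and do not give its error rates for the real libraries.

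The 47 genes, the other lists (other replication and mitosis genes, G1 genes, CDK inhibitors, nucleolar, neuron, muscle, erythroid, germ cell and proliferating tissue genes) and the tests were chosen with earlier results of these data known. Genes were named by rule: fixed examples of each role, the largest and smallest fall of each role, members not called or not detected, members that differed between kinds of library, the largest changes of each other list and the 5 most alike profiles. Other genes named, such as cdc6, rpa3, mcm3 and mcm6, and the tests between successive steps were chosen after their values were seen. Of the 47 symbols, all were matched in the RefSeq gene table and 6 in the Ensembl name table. No sequences and no coordinates were used.

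Libraries of a group were compared before averaging, and none of 408 pairs agreed within counting noise (lowest chi-square per gene 3.74). Replicate numbers did not pair the libraries, since the deviations of 263 same-number pairs from their group means had a median r of -0.000432.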

Additional observations from a re-analysis of the deposited data

Results flagged for a closer look

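In 28 of 400 groups of 4 to 8 libraries (25 genes and lists in 16 groups each) the highest or lowest library lay far from the others by Dixon's criterion, which chance alone gives in about 1 of 20. All values are log2(CPM + 1).

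Among the replication genes, pcna was low in plain replicate 6 of 48 hpf (8.24, others 8.36 to 8.43), the library with the highest total. cdt1 was low in DrRyu replicate 3 of 24 hpf (1.98, others 3.43 to 4.52) and fen1 high in S replicate 3 of 96 hpf (5.72, others 4.98 to 5.30). rfc3 was high in plain replicate 8 of 6 ss (4.51, others 3.72 to 4.08) and low in DrRyu replicate 8 of 48 hpf (2.58, others 3.70 to 4.51). The fork genes as a list were low in DrRyu replicate 3 of 20 ss (6.20, others 6.66 to 6.96), which also had a low bub3 (3.69, others 5.21 to 6.03).

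Among mitotic genes, cdk1 was high in S replicate 5 of 15 ss (7.15, others 6.84 to 6.92) and in DrRyu replicate 8 of 72 hpf (5.67, others 4.59 to 5.02). The mitotic list was low in plain replicate 4 of 20 ss (6.53, others 6.62 to 6.69) and in plain replicate 8 of 96 hpf (3.97, others 4.33 to 4.63).

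Among checkpoint genes, mad2l1 was low in 4 groups, namely plain replicate 3 (6.67, others 7.10 to 7.47) and S replicate 4 (6.82, others 7.17 to 7.35) of 6 ss, DrRyu replicate 4 of 20 ss (6.15, others 6.83 to 7.21) and plain replicate 7 of 96 hpf (3.93, others 4.63 to 5.13). S replicate 4 of 6 ss was low for the checkpoint list too (5.44, others 5.77 to 5.90). bub1bb was low in S replicate 1 of 96 hpf (3.65, others 4.27 to 4.63). bub1 was high in plain replicate 3 of 48 hpf (2.49, others at most 0.92) and was counted in only 1 library in S at 96 hpf (0.50) and in DrRyu at 72 hpf (0.49).

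Among chromosome and spindle genes, mki67 was low in plain replicate 1 of 20 ss (6.39, others 6.78 to 7.00) and replicate 3 of 24 hpf (6.65, others 6.88 to 7.06). kif11 was low in plain replicate 4 of 20 ss (5.70, others 6.24 to 6.52) and in DrRyu replicate 1 of both 32 hpf (5.31, others 5.77 to 6.13) and 48 hpf (3.95, others 4.99 to 5.78). birc5a was high in plain replicate 7 of 6 ss (6.93, others 6.22 to 6.52) and low in S replicate 3 of 15 ss (5.96, others 6.41 to 6.56), and the chromosome list was high in plain replicate 4 of 15 ss (6.42, others 6.30 to 6.31).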

How the results depend on the processing

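Of 204 counts of called genes recomputed under the alternatives, 181 were within 1.5 times the value given, and the counts from 6 ss to 96 hpf and from 20 ss to 72 hpf all were. The 23 others were mostly small counts. For 6 to 15 ss in plain libraries (1 gene) the count was 2 with DESeq2, with library totals, with filterByExpr and without the low-total library, and 7 with each kind alone. For 20 ss to 24 hpf it was 10 with library totals, 0 without a filter and 9 with each kind alone in plain libraries (2 genes), and 12 with library totals and 2 with each kind alone in DrRyu libraries (6 genes). For 48 to 72 hpf in plain libraries (21) it was 11 with library totals, and for 72 to 96 hpf (18) it was 33 with plain libraries alone. For 24 to 32 hpf in DrRyu libraries (5) it was 8 with DESeq2 and 1 with that kind alone, and for 6 to 10 ss in S libraries (0) it was 1 with that kind alone. For S against plain at 96 hpf (4) it was 1 with library totals and 2 without the low-total library. For the difference in change between S and plain libraries (0) it was 3 with DESeq2 and 1 with library totals, with size factors, without a filter and with filterByExpr, and between DrRyu and plain libraries (0) it was 2 with library totals. The causes were not tested, and these counts are given without the shares over all genes under each setting.

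With the replicate number as a block, 45, 47, 46 and 47 genes fell over the 4 spans, and no count moved by over 1.5 times. Leaving out each 15 ss library in turn gave 1 gene from 6 to 15 ss and 0 from 15 to 20 ss, from 10 to 15 ss and between S and plain libraries each time. Of 720 log2 fold changes of named genes 714 kept their direction and call. The sign changed for rfc3, log2 fold change 96 hpf minus 6 ss, plain (0.0178 with DESeq2 and 0.0236 with its size factors). Depth limits bub1 above all.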

Other observations

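Genes of nucleolar ribosome biogenesis, another class that dividing cells use heavily, fell over the same span. All 30 listed genes fell from 6 ss to 96 hpf in plain libraries (22.6% of all genes), with a median log2 fold change of -2.76. From 20 ss to 24 hpf in DrRyu libraries 28 of the 30 fell (12.2% of all genes) with a median of -1.09. At this step 2 of the 47 cell cycle genes fell and 4 rose. In plain libraries 11 of the 30 fell at that step (2.92% of all genes, median -0.38). From 24 to 48 hpf, where 46 of the 47 fell, 29 of the 30 fell in plain libraries (14.3% of all genes, median -1.75). From 48 to 72 hpf 1 fell (4.42% of all genes) and 4 rose (3.78%, median 0.25), while 21 of the 47 fell. The difference between these classes was not tested.

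Of 12 listed markers of brain progenitors, the retinal margin and blood precursors 5 rose and 4 fell from 6 ss to 96 hpf in plain libraries, beside 32.0% and 22.6% of all genes. fabp7a, a radial glia gene, rose by 7.03 on the log2 scale, while cdx4, a gene of the posterior body, fell by 7.20 and the neural progenitor gene sox3 fell by 2.48. Of 13 germ cell and maternal genes 7 fell and none rose, beside the same shares of all genes. Their summed level was 698 to 928 CPM at 6 ss and 665 to 776 CPM at 96 hpf in plain libraries, with overlap.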
